A study of Mus musculus with 12 samples.

Results

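The transcripts of 10 genes of acute phase proteins were followed in isolated mouse hepatocytes. They were chosen by symbol from the 35709 genes of the deposited table, and each symbol matched 1 row. The serum amyloid A genes were Saa1, Saa2 and Saa3, and the orosomucoid genes, which encode alpha-1-acid glycoproteins, were Orm1, Orm2 and Orm3. The remaining 4 were Lcn2, Hp, Hpx and Serpina3n. All 10 passed the filter on low values, a normalized count of at least 1 in at least 3 libraries.

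The cells came from male C57BL/6J mice of 8 to 10 weeks, by Liberase perfusion, differential centrifugation and a Percoll gradient. The 12 RNA-seq libraries formed 4 groups of 3: Alb-R3 after CCl4, Alb-Cre after CCl4, Alb-R3 after oil and Alb-Cre after oil. Alb-Cre marks Cre recombinase driven by the albumin promoter, which is active in hepatocytes. Alb-R3 mice are described as lacking Fgfr3, a fibroblast growth factor receptor gene, in hepatocytes only. The sources used here do not give the floxed allele behind that name. Carbon tetrachloride (CCl4), a toxicant that kills hepatocytes around the central vein, was injected once at 0.4 mg per g of mouse, and olive oil, its carrier, served as control. RNA was taken at 48 h. The labels do not say that libraries of a group came from separate animals, so p-values measure the spread between these libraries, which may be technical.

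The acute phase response is the change in plasma proteins made by the liver after injury or infection. Interleukin-6 acts on hepatocytes through STAT3, and interleukin-1 acts through NF-kB and C/EBP factors, to raise transcription of genes such as Saa1, Saa2 and Hp. Serum amyloid A proteins travel on high-density lipoprotein, orosomucoids bind drugs and lipids, haptoglobin (Hp) captures free hemoglobin, hemopexin (Hpx) captures free heme, lipocalin 2 (Lcn2) withholds siderophore iron from bacteria, and Serpina3n inhibits serine proteases.

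Saa1, Saa2 and Saa3 lie together on chromosome 7 of GRCm38, Saa1 at 46740497 to 46742980 on the minus strand, Saa2 at 46751790 to 46754313 on the plus strand and Saa3 at 46711998 to 46715700 on the minus strand. Orm1, Orm3 and Orm2 follow each other on the plus strand of chromosome 4, at 63344560 to 63348163, 63356162 to 63359511 and 63362449 to 63365878. Hpx is at 105591613 to 105600137 on chromosome 7, Lcn2 at 32384633 to 32388252 on chromosome 2 and Hp at 109575128 to 109579172 on chromosome 8, all on the minus strand. Serpina3n is at 104406729 to 104414329 on the plus strand of chromosome 12.

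The upstream sequences of the 2 gene pairs that carry the largest falls below are shown because each pair shares 1 C/EBP motif at nearly the same distance from the start site. They are RefSeq sequences on GRCm38.p6, from 250 to 51 bases before the start, read along the gene's strand: Saa1 at chr7:46743031-46743230 (minus strand), Saa2 at chr7:46751583-46751782 (plus strand), Orm2 at chr4:63362199-63362398 and Orm3 at chr4:63355908-63356107 (both plus strand). Capitals mark the match to TTGCNCAA.
Saa1: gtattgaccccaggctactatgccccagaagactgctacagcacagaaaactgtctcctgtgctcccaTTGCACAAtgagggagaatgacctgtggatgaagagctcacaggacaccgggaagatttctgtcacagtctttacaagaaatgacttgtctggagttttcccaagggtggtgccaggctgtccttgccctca
Saa2: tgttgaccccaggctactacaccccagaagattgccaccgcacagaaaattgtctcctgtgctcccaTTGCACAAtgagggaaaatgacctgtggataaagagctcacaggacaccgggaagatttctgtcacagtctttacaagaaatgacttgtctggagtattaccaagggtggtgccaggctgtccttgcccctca
Orm2: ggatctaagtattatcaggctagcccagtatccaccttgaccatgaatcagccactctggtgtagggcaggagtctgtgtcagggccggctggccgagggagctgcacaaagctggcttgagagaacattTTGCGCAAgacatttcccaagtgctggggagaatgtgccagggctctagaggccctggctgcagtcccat
Orm3: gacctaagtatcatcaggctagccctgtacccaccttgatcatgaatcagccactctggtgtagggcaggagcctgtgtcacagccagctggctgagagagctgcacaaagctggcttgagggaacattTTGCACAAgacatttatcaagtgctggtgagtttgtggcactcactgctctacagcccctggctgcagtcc

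The motif TTGCNCAA, on either strand, started at -182 in Saa1, -183 in Saa2, -120 in Orm2 and -121 in Orm3. A further match was in Lcn2, at -216, whose log2 fold change of CCl4 against oil was 1.44 in Alb-R3 and -0.07 in Alb-Cre. Thus 5 of the 8 genes with a RefSeq window held the motif within 250 bases upstream, against 2.61% of 32851 windows. Here 1 window was taken for each of the 8 genes, while the share counts every window and not genes. The NF-kB pattern GGGA and CC with 4 bases between was found in 1 of the 8, Serpina3n, against 17.6% of windows. The STAT pattern TTCNNNGAA and the interleukin-6 response core CTGGGAA were in none of the 8, against 7.02% and 9.1% of windows. Orm1 and Hp had no entry in the table of windows. Neighbouring copies share their upstream bases, so the 5 matches are not 5 independent ones: the 250-base windows of Saa1 and Saa2 were 94.8% identical and those of Orm2 and Orm3 85.5%.

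The close copies also limit how reads are divided between genes. The transcripts of Saa1 and Saa2 were 93.9% identical, those of Orm1 and Orm2 91% and those of Orm2 and Orm3 88%. Of the distinct 31-base words of each gene's transcripts, 53.2% for Saa1 and 55.5% for Saa2 occurred in no other gene. The share was 72.5% for Orm1, 65.9% for Orm2 and 90.6% for Orm3. It was 92.6% for Saa3, 78.4% for Serpina3n and at least 99.7% for Lcn2, Hp and Hpx. Values of Saa1 against Saa2, and of Orm1 against Orm2, therefore carry an uncertainty from read assignment that the replicate error does not show. It extends to Orm3, which shared 9.42% of its words with Orm2. In Alb-Cre oil the mean normalized count was 15640 for Orm2 and 439.5 for Orm3. How many of the reads counted as Orm3 came from Orm2 was not tested, so their falls below may not be separate.

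The libraries held an estimated 28020000 to 39610000 reads. The fewest reads stood behind Orm3, about 17 in Alb-R3 CCl4 replicate 2 and 19 in Alb-Cre CCl4 replicate 3, a counting error of 24.2% and 22.9%, and 47 or more in its other libraries. The other 9 genes had at least 246 in every library. Alb-R3 CCl4 replicate 1 stood apart: genes of the mitochondrial genome took 32.3% of its normalized counts, against 6.22% to 12.8% in the other 11 libraries, and the 9 hepatocyte markers took 5.22%, against 7.64% to 11.8%. The fold changes that rest on it are also given without it. Fgfr3 had 372.1 to 477.7 normalized counts in Alb-R3 and 705.7 to 950.9 in Alb-Cre after CCl4, and 523.1 to 1109 in Alb-R3 and 734.9 to 988.1 in Alb-Cre after oil. The highest of the 12 values belonged to the library labelled Alb-R3 oil replicate 3, and these values cover the whole gene, including any exon outside a deletion.

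After oil the genes spanned a wide range of expression. By length-scaled level (FPKM), Hpx stood at 7623 ± 1271 in Alb-R3 and 7424 ± 1064 in Alb-Cre (SD, n = 3 each), and Hp at 7715 ± 949.4 in Alb-R3 and 5624 ± 1566 in Alb-Cre. Both were among the 23 genes with the highest mean FPKM of each oil group. Orm1 at 2100 ± 925.6 and 2324 ± 574.7 FPKM and Saa1 at 1947 ± 783.1 and 1327 ± 530.9 FPKM, in Alb-R3 and Alb-Cre, came next, with overlapping spreads in both genotypes. Saa2 (1333 ± 578 and 733.8 ± 344.4), Orm2 (610.6 ± 397.8 and 571.3 ± 274.2) and Serpina3n (250 ± 26.55 and 238.3 ± 87.34) followed, again Alb-R3 before Alb-Cre. Lcn2 had 68.05 ± 36.79 FPKM in Alb-R3 and 62.94 ± 52.23 in Alb-Cre. The lowest were Orm3, at 16.74 ± 6.57 and 16.11 ± 5.06 FPKM, and Saa3, at 12.43 ± 7.16 and 12.0 ± 4.06 FPKM, whose spreads overlapped.

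**Figure D1:**
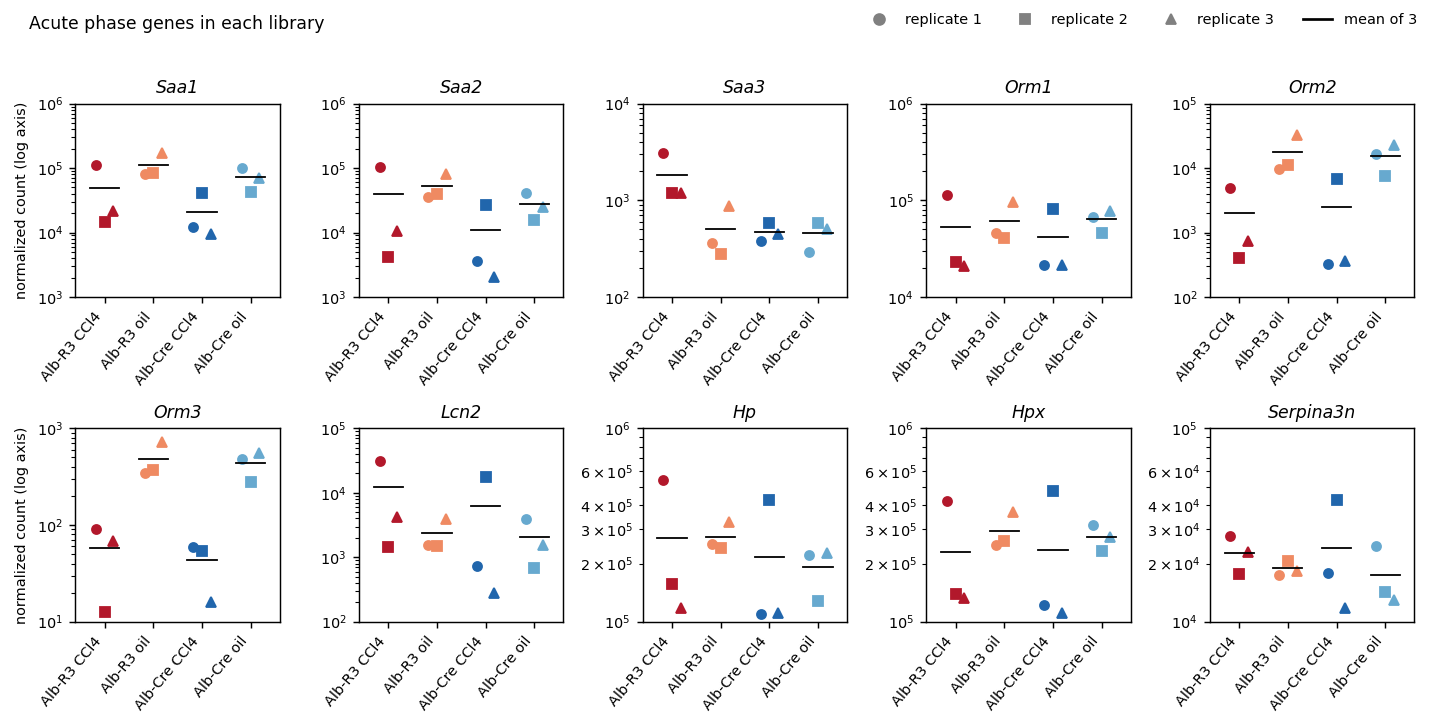
Normalized count of each acute phase gene (y axis, log scale) in the 12 libraries by group (x axis), with a symbol for each replicate number and a line at the mean of 3. Orm3 and Orm2 are lower in all 6 CCl4 libraries than in any oil library, Saa3 is at 1197 or more in the 3 Alb-R3 CCl4 libraries, and replicate 1 of Alb-R3 CCl4 and replicate 2 of Alb-Cre CCl4 stand above their groups for most genes.

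The first comparison asked how the genes differed between CCl4 and oil in each genotype. Orm3 fell in both genotypes and Orm2 fell in Alb-R3. Saa3 rose in Alb-R3. Of the 10 genes, 2 passed the threshold as lower and 1 as higher in Alb-R3, where 6.92% and 10.9% of the 20244 tested genes did so. In Alb-Cre 1 passed as lower, where 0.988% of tested genes did, and 0 as higher, where 3.46% did. The test was limma on log2(normalized count + 1), with Benjamini-Hochberg adjustment over all tested genes and a threshold of 0.05. Fold changes below are log2 values on that scale. The median of the 10 log2 fold changes was -0.55 in Alb-R3 and -0.72 in Alb-Cre, with 7 and 8 of the 10 below 0, and the median of all tested genes was within 0.02 of 0 in both. These values depended on scaling. Under quantile normalization Orm1 had -0.10 in Alb-R3 and -0.47 in Alb-Cre, and Hpx -0.29 and -0.22, nearer 0 than below. Hp then had -0.19 and 0.21, with another sign in Alb-Cre, while Orm3 had -3.62 and -3.61. With Alb-R3 CCl4 replicate 1 left out, the median of the 10 in Alb-R3 was -1.22, and 1 passed as higher and 4 as lower, where 9.84% and 6.21% of tested genes did. In Alb-Cre 0 and 3 then passed, where 4.93% and 2.29% of tested genes did.

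Orm3 had 92.01, 12.46 and 69.13 normalized counts in the Alb-R3 CCl4 libraries, against 344.2, 367.2 and 729.7 in Alb-R3 oil. In Alb-Cre the values were 59.52, 53.91 and 15.80 after CCl4, against 486.2, 279.8 and 552.5 after oil. All 6 CCl4 libraries lay below all 6 oil libraries. Within Alb-R3, 15.5% of tested genes were lower without overlap, and Orm3 and Orm2 were the 2 of the 10 that were. The fold change of Orm3 was -3.35 ± 0.66 in Alb-R3 (SE, adjusted p = 0.00394) and -3.47 ± 0.66 in Alb-Cre (adjusted p = 0.0070). Both calls held under all 19 alternative settings, at an adjusted p of at most 0.0203 and 0.0367. The fold change in Alb-R3 was -3.88 without Alb-R3 CCl4 replicate 1.

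Orm2, the neighbour of Orm3, had 4877, 401.2 and 733.7 normalized counts in Alb-R3 CCl4, against 9725, 11270 and 32160 in Alb-R3 oil. In Alb-Cre it had 326.3, 6850 and 361.5 after CCl4, against 16840, 7494 and 22600 after oil. Again no CCl4 value reached an oil value, although 1 CCl4 library of each genotype stood far above its group mates. The fold change was -3.75 ± 1.08 in Alb-R3 (adjusted p = 0.0290) and -3.93 ± 1.08 in Alb-Cre, which missed the threshold (adjusted p = 0.0594). Without Alb-R3 CCl4 replicate 1 it was -4.81 in Alb-R3 (adjusted p = 0.00613), and Orm2 passed in Alb-Cre at the same -3.93 (adjusted p = 0.0181). Without Alb-Cre CCl4 replicate 2 it was -5.36 in Alb-Cre and passed (adjusted p = 0.00335). The Alb-R3 call was lost without any other single library of its contrast, at an adjusted p between 0.0561 and 0.102.

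Orm1, the most abundant orosomucoid, did not separate the treatments. It had 113300, 23190 and 21130 normalized counts in Alb-R3 CCl4, against 45650, 40690 and 95180 in Alb-R3 oil. In Alb-Cre it had 21220, 81880 and 21520 after CCl4, against 66520, 45910 and 78170 after oil. The highest CCl4 library exceeded all oil libraries of its genotype, and the other 2 lay below them. The fold change was -0.56 ± 0.65 in Alb-R3 (adjusted p = 0.612) and -0.89 ± 0.65 in Alb-Cre (adjusted p = 0.554). With the 3 orosomucoid genes summed, which removes the division of reads between them, it was -0.87 ± 0.68 and -1.15 ± 0.68, and neither passed (adjusted p = 0.42 and 0.44). In Alb-R3 without CCl4 replicate 1, Orm1 had -1.34 (adjusted p = 0.104) and the sum -1.66 (adjusted p = 0.0603).

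The ratio within a library shows the unequal change of the 3 orosomucoids without regard to library size. Orm2 over Orm1, in FPKM, was 0.0430, 0.0173 and 0.0347 in Alb-R3 CCl4 and 0.0154, 0.0837 and 0.0168 in Alb-Cre CCl4. After oil it was 0.213, 0.277 and 0.338 in Alb-R3 and 0.253, 0.163 and 0.289 in Alb-Cre. The log2 ratio was 3.12 lower after CCl4 (-3.12), averaged over the genotypes. Its two-sided exact permutation p, over the 400 arrangements of treatment within genotype, was 0.005, the smallest they can give, and 0.0125 after adjustment over 5 ratios. For Orm3 over Orm1 the difference was -2.73, with the same exact p. This ratio ranged from 0.00054 to 0.0033 after CCl4 and from 0.0061 to 0.0090 after oil. Without Alb-R3 CCl4 replicate 1 the differences were -3.25 and -2.61. The ratios were chosen after the values were seen.

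**Figure D2:**
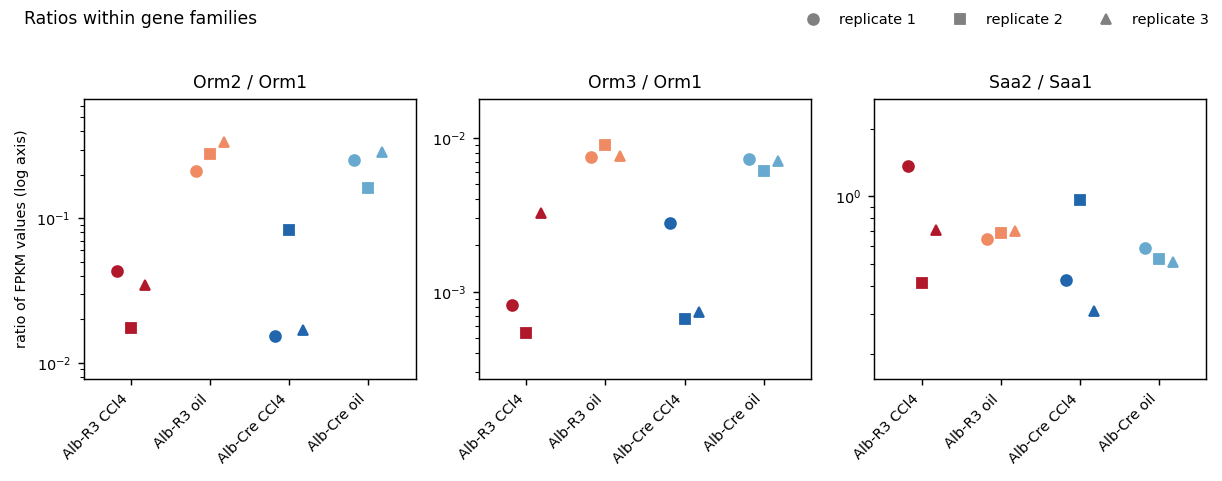
Ratios of FPKM values within each library (y axes, log scale) by group (x axis), with a symbol for each replicate number. Orm2 over Orm1 and Orm3 over Orm1 are lower in all 6 CCl4 libraries than in all 6 oil libraries, and Saa2 over Saa1 spreads from 0.309 to 1.36 after CCl4, around the oil values of 0.512 to 0.701.

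Saa1 had 110600, 14820 and 21230 normalized counts in Alb-R3 CCl4, against 79660, 82540 and 169200 in Alb-R3 oil. In Alb-Cre it had 12090, 40540 and 9569 after CCl4, against 101700, 43270 and 69930 after oil. The groups did not overlap in Alb-Cre, where 10.4% of tested genes were lower without overlap. In Alb-R3 they overlapped through replicate 1 of CCl4. The fold change was -1.67 ± 0.70 in Alb-R3 and -2.01 ± 0.70 in Alb-Cre (adjusted p = 0.125 and 0.149). Without Alb-R3 CCl4 replicate 1 it was -2.55 ± 0.55 in Alb-R3 and passed (adjusted p = 0.00717). That fit also had a smaller spread, and Saa1 then passed in Alb-Cre too, at the same -2.01 (adjusted p = 0.0254).

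Saa2, the near copy of Saa1, ranked the libraries of each group in the same order as Saa1. It had 103500, 4223 and 10410 normalized counts in Alb-R3 CCl4, against 35520, 39230 and 81680 in Alb-R3 oil, and 3554, 27060 and 2039 in Alb-Cre CCl4, against 41400, 15790 and 24650 in Alb-Cre oil. One library in each CCl4 group overlapped the oil values. The fold change was -1.55 ± 1.04 in Alb-R3 and -2.12 ± 1.04 in Alb-Cre (adjusted p = 0.346 and 0.326). Without Alb-R3 CCl4 replicate 1 it was -2.87 in Alb-R3 and passed (adjusted p = 0.0314). The sum of Saa1 and Saa2 had -1.59 ± 0.82 and -2.01 ± 0.82 in the 2 genotypes (adjusted p = 0.213 and 0.224, limma), and -2.63 in Alb-R3 without that library, which passed (adjusted p = 0.0130).

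Saa3, which in mice is made largely outside hepatocytes, in macrophages and fat cells among others, moved the other way. It had 3096, 1197 and 1204 normalized counts in Alb-R3 CCl4, against 363.0, 278.6 and 865.7 in Alb-R3 oil. In Alb-Cre it had 381.7, 586.5 and 444.3 after CCl4, against 289.0, 580.9 and 499.3 after oil. The Alb-R3 groups did not overlap, as was so in this direction for 18.1% of tested genes, and the Alb-Cre groups did. Saa3 rose by 1.89 ± 0.44 in Alb-R3 (adjusted p = 0.00995), and by 1.43 without replicate 1 of CCl4 (adjusted p = 0.0266). In Alb-Cre its fold change was 0.08 ± 0.44 (adjusted p = 0.963).

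Markers of Kupffer cells and macrophages rose with Saa3 in the comparison of CCl4 with oil in Alb-R3. The summed normalized count of 14 such markers was 16960, 2991 and 3949 in Alb-R3 CCl4, against 1073, 1248 and 1507 in Alb-R3 oil. In Alb-Cre it was 1829, 2162 and 2368 after CCl4, against 3231, 1631 and 2684 after oil. Between the genotypes after oil, marker sum and Saa3 did not go together: every Alb-R3 sum was below every Alb-Cre sum, while the Saa3 values overlapped. Alb-Cre oil replicate 1 had the sum of 3231 and a Saa3 value of 289.0. All 14 markers passed as higher in the Alb-R3 comparison, 11 of them without replicate 1 of CCl4, and 0 in the Alb-Cre comparison, and none was at 0 in any library. Of other cell types, 6 of 8 endothelial and 8 of 10 stellate cell markers passed as higher in Alb-R3, and 0 and 4 in Alb-Cre. Of the markers tested, 3 of 7 for monocytes and dendritic cells, 3 of 7 for cholangiocytes, 1 of 7 for neutrophils and 1 of 3 for adipocytes also passed as higher in Alb-R3, and 1 of these, the cholangiocyte marker Spp1, in Alb-Cre. Of 7 B and T cell markers 0 passed in either. After oil the 8 endothelial markers summed to 1390, 1417 and 1573 normalized counts in Alb-R3, against 2520, 2374 and 3100 in Alb-Cre. The 10 stellate cell markers summed to 964.2, 1198 and 1221 in Alb-R3 oil, against 2402, 1927 and 2707 in Alb-Cre oil. After CCl4 the sums of the genotypes overlapped for both lists. Without replicate 1 of Alb-R3 CCl4, 7 endothelial, 10 stellate cell, 3 cholangiocyte and 1 monocyte and dendritic cell markers passed as higher in Alb-R3. Of the neutrophil and adipocyte markers 0 then passed there. In Alb-Cre 5 stellate cell markers, Spp1 and the macrophage marker Cd68 then passed as higher. Between the genotypes after oil, 3 endothelial and 2 stellate cell markers then passed as lower in Alb-R3, as 63 of 19818 tested genes did. With all libraries 0 of these markers passed in that comparison. The called markers Krt19, Muc1 and Mmp8 were at 0 in all 3 Alb-R3 oil libraries. The part of these cell types in the Saa3 result was not tested. In bulk libraries, more cells of a type and more RNA per cell cannot be told apart.

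**Figure D3:**
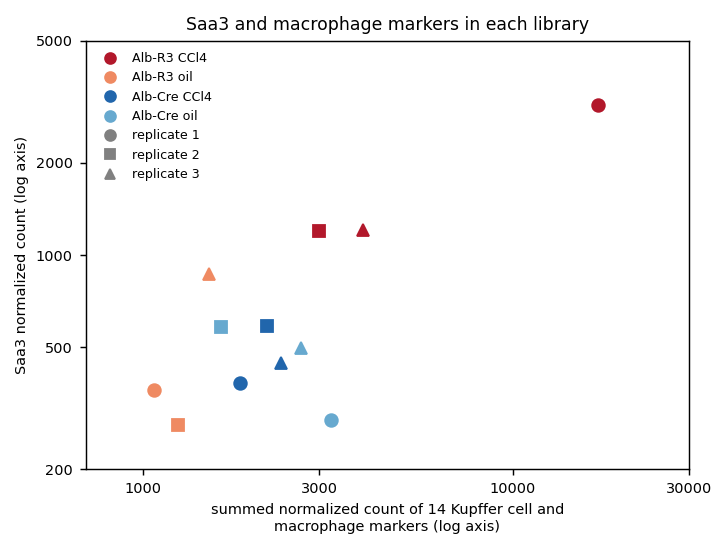
Saa3 normalized count (y axis, log scale) against the summed normalized count of 14 Kupffer cell and macrophage markers (x axis, log scale), 1 point per library. The 3 Alb-R3 CCl4 libraries are at 1197 to 3096 for Saa3, above the other 9, and at 2991 to 16960 for the markers, where 1 Alb-Cre oil library (3231) also lies.

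Lcn2 spread widely after CCl4: its highest value was 62.4 times its lowest in Alb-Cre, the widest range of the 10 genes there, and 21.8 times in Alb-R3, where Saa2 had 24.5 times. Its normalized counts were 31140, 1426 and 4195 in Alb-R3 CCl4, against 1570, 1506 and 3971 in Alb-R3 oil. In Alb-Cre they were 724.3, 17440 and 279.3 after CCl4, against 3985, 669.9 and 1529 after oil. Both comparisons overlapped. The fold change was 1.44 ± 1.32 in Alb-R3 and -0.07 ± 1.32 in Alb-Cre (adjusted p = 0.504 and 0.994). In Alb-R3 it was 0.21 without replicate 1 of CCl4 (adjusted p = 0.936). The 95% interval in Alb-Cre, -2.92 to 2.78, covers large changes in either direction.

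Hp had 542800, 156100 and 117700 normalized counts in Alb-R3 CCl4, against 251300, 240600 and 329300 in Alb-R3 oil, and 109900, 427900 and 110300 in Alb-Cre CCl4, against 220500, 127900 and 226300 in Alb-Cre oil. Hpx had 418800, 139800 and 132400 in Alb-R3 CCl4, against 250600, 261300 and 369000 in Alb-R3 oil. In Alb-Cre Hpx had 122400, 473600 and 110600 after CCl4, against 314800, 230900 and 275400 after oil. In each CCl4 group 1 library lay above all oil libraries and the other 2 lay below them, for both genes. The fold change of Hp was -0.33 ± 0.68 and -0.10 ± 0.68, and that of Hpx -0.55 ± 0.66 in both, in Alb-R3 and Alb-Cre (all adjusted p at least 0.622). In Alb-R3 without CCl4 replicate 1, Hp had -1.0 and Hpx -1.09 (adjusted p = 0.263 and 0.223).

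Serpina3n did not separate the treatments. It had 27870, 17660 and 22830 normalized counts in Alb-R3 CCl4, against 17510, 20630 and 18400 in Alb-R3 oil, and 17960, 42790 and 11710 in Alb-Cre CCl4, against 24770, 14250 and 13000 in Alb-Cre oil. All groups overlapped, and the fold change was 0.25 ± 0.40 in Alb-R3 and 0.32 ± 0.40 in Alb-Cre (adjusted p = 0.716 and 0.764). It was 0.10 in Alb-R3 without CCl4 replicate 1 (adjusted p = 0.913).

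**Figure D4:**
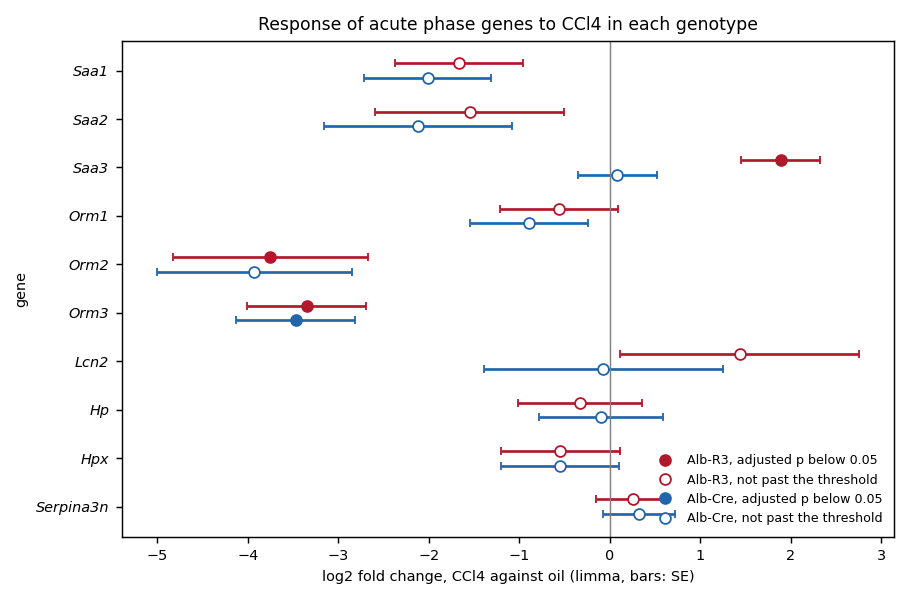
Log2 fold change of CCl4 against oil (x axis) for each acute phase gene (y axis) in Alb-R3 and Alb-Cre, with limma's SE as bars and filled points where the adjusted p is below 0.05. Filled points are Orm3 in both genotypes and Orm2 and Saa3 in Alb-R3, and Saa3 is the gene whose genotypes lie farthest apart, at 1.89 and 0.08.

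Averaging the CCl4 contrast over both genotypes, an added comparison, gave 4 calls among the 10 genes: 3 lower, where 8.78% of tested genes were, and 1 higher, where 12.8% were. Orm3 had -3.41 ± 0.46 (adjusted p = 0.000191), Orm2 -3.84 ± 0.76 (adjusted p = 0.00299), Saa1 -1.84 ± 0.50 (adjusted p = 0.0179) and Saa3 0.99 ± 0.31 (adjusted p = 0.0358). The call of Saa3 was lost without Alb-R3 CCl4 replicate 1 (adjusted p = 0.0552) and without any of 5 other single libraries (up to 0.0903). The calls of Orm3, Orm2 and Saa1 held under all 19 alternative settings, with an adjusted p of at most 0.0490 for Saa1. Saa2 had -1.83 ± 0.74 (adjusted p = 0.0947), and passed without Alb-R3 CCl4 replicate 1 (adjusted p = 0.00546) and without Alb-Cre CCl4 replicate 2 (adjusted p = 0.0261). Orm1 had -0.72 (adjusted p = 0.298), and passed at -1.12 without Alb-R3 CCl4 replicate 1 (adjusted p = 0.0346). Orm2 and Orm3 were the 2 genes lower in all 6 CCl4 than in all 6 oil libraries, as 4.65% of tested genes were.

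The spread among CCl4 libraries was shared by most of the genes. Replicate 1 of Alb-R3 CCl4 was the highest of its group for 10 of 10 genes, and replicate 2 of Alb-Cre CCl4 for 9 of 10, all but Orm3. Set against the mean of the other 2 libraries of its group, the high library held 11.1 times as much Lcn2 in Alb-R3 and 34.8 times in Alb-Cre. For Saa2 the ratios were 14.1 and 9.68, for Orm2 8.59 and 19.9, for Hp 3.96 and 3.89 and for Hpx 3.08 and 4.07. Serpina3n had 1.38 and 2.88. The 10 genes together took 3.82%, 1.24% and 1.22% of the normalized counts in Alb-R3 CCl4 and 0.988%, 3.49% and 0.925% in Alb-Cre CCl4. They took 1.96%, 1.96% and 2.83% in Alb-R3 oil and 2.23%, 1.40% and 2.01% in Alb-Cre oil. The high CCl4 library of each genotype thus lay above all 6 oil libraries, and the other 4 CCl4 libraries lay below all 6. Hp and Hpx held most of these counts in every library, so the shares follow mainly these 2 genes.

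The 2 high libraries differed in other respects. Replicate 1 of Alb-R3 CCl4 had 32.3% mitochondrial counts and a macrophage marker sum of 16960. It also had a sum of 1365 over 12 neutrophil markers, with 5 of the 12 at 0 (Ly6g, Mpo, Camp, Ngp and Ltf), where the other 11 libraries had 23.7 to 73.5. Replicate 2 of Alb-Cre CCl4 had 6.25% mitochondrial counts, 10.8% hepatocyte marker counts and a macrophage marker sum of 2162, between its group mates at 1829 and 2368. Its neutrophil marker sum was 73.5, against 25.5 and 29.0. The part of these values in the spread was not tested.

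Within groups the genes moved together. Taking each log2 value minus its group mean over the 12 libraries, Pearson's r was 0.986 between Saa1 and Saa2, 0.973 between Hp and Hpx, 0.968 between Orm1 and Hp and 0.965 between Saa2 and Lcn2. Among Saa1, Saa2, Orm1, Orm2, Lcn2, Hp and Hpx the 21 pairs had r between 0.889 and 0.986, a grouping made after the values were seen. Orm3 reached at most 0.745 with another member, and Saa3 at most 0.743. The lowest of the 45 pairs was Saa3 with Serpina3n, at 0.102. These r are descriptions of 12 libraries that share depth and scaling. For these 7 genes the 2 high CCl4 libraries had the largest positive deviations. For Saa3 the largest positive deviation was in Alb-R3 oil replicate 3 (0.96), ahead of Alb-R3 CCl4 replicate 1 (0.91). For Orm3 it was in Alb-R3 CCl4 replicate 1 (1.065), and a larger negative one was in Alb-R3 CCl4 replicate 2 (-1.72).

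**Figure D5:**
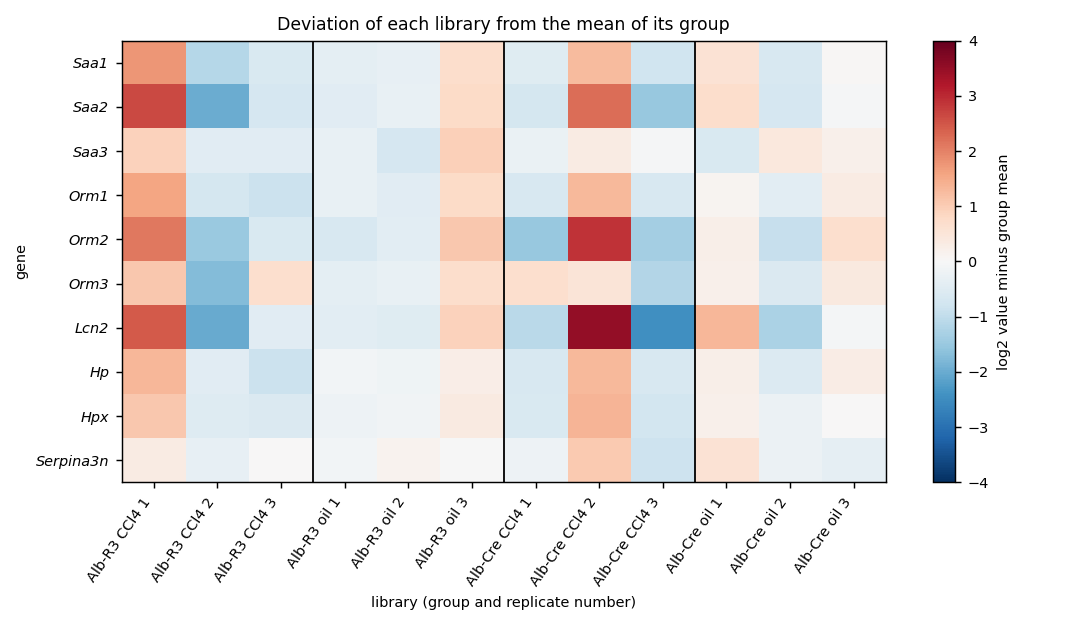
Log2 value of each acute phase gene (y axis) in each library (x axis) minus the mean of its group, as colour from blue (below) to red (above). Replicate 1 of Alb-R3 CCl4 and replicate 2 of Alb-Cre CCl4 are red for nearly all genes, and deviations in the oil groups are mostly smaller.

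For each member, the gene outside the 10 with the most similar log2 profile over the 12 libraries was found by Pearson's r. For Lcn2 it was Il18bp, the binding protein of interleukin-18 (r = 0.982). It was Ambp, the precursor of alpha-1-microglobulin, for Orm1 (0.968), F7, coagulation factor VII, for Orm2 (0.952) and Ccdc151 for Orm3 (0.949). Hpx was closest to Kng2, a kininogen (0.966), and Hp to Ctsz, the protease cathepsin Z (0.947). Serpina3n was closest to Trf, transferrin (0.921). Saa1 was closest to Chrna1os (0.96), Saa2 to the citrate transporter Slc13a5 (0.897) and Saa3 to Rps4x, a ribosomal protein (0.951). These r are the highest over the whole table and are given without a test.

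The second comparison asked whether the genotypes differed. After CCl4, 0 of the 10 genes passed between Alb-R3 and Alb-Cre, where 0.173% of tested genes did. All 10 log2 fold changes were above 0 (median 0.29), and without Alb-R3 CCl4 replicate 1 those of Orm1, Orm2, Orm3, Hp, Hpx and Serpina3n were below 0. Saa3 had the smallest p: all 3 Alb-R3 values, 3096, 1197 and 1204, exceeded the Alb-Cre values, 381.7, 586.5 and 444.3, as was so without overlap for 6.16% of tested genes. Its fold change was 1.83 ± 0.44, with an unadjusted p of 0.00102 and an adjusted p of 0.192 by limma, and 1.37 without replicate 1 (adjusted p = 0.400). Lcn2 had 1.91 ± 1.32 and Saa2 1.51 ± 1.04, both at an adjusted p of 0.782, and 0.68 and 0.19 without replicate 1.

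After oil, 0 of the 10 passed between Alb-R3 and Alb-Cre, where 0.207% of tested genes did, and every adjusted p was 1. Hp was the 1 gene without overlap, at 251300, 240600 and 329300 in Alb-R3 and 220500, 127900 and 226300 in Alb-Cre, with a fold change of 0.55 ± 0.68. In that direction 5.66% of tested genes did not overlap. The library labelled Alb-R3 oil replicate 3, the one with the highest Fgfr3 value, was the highest of its group for 9 of the 10 genes.

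The difference between the genotypes in their CCl4 response was tested as an interaction. By limma 0 of the 10 genes passed, as did 0 of all 20244, of which 1516 had an unadjusted p below 0.05. Saa3 had 1.81 ± 0.62 (unadjusted p = 0.0115, adjusted p = 0.505) with a 95% interval of 0.48 to 3.14, so its rise in Alb-R3 was not shown to differ from Alb-Cre. For Orm3 the difference was 0.12 ± 0.93 (95% interval -1.88 to 2.12), for Orm2 0.17 ± 1.52 and for Saa1 0.35 ± 0.99. With Alb-R3 CCl4 replicate 1 left out, Saa3 had 1.35 (adjusted p = 0.589), and Orm3, Orm2 and Saa1 had -0.41, -0.88 and -0.53. With all libraries, the 95% intervals of Orm3, Orm2 (-3.11 to 3.46) and Saa1 (-1.80 to 2.49) leave room for more than 1 log2 unit either way.

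Other genes of the response were read from lists by role, and their counts stand beside 10.9% of all tested genes higher and 6.92% lower in Alb-R3, and 3.46% and 0.988% in Alb-Cre. Without Alb-R3 CCl4 replicate 1 these shares were 9.84% and 6.21%, and 4.93% and 2.29%. Of 30 other positive acute phase genes, 2 rose and 2 fell in Alb-R3, and 0 rose and 1 fell in Alb-Cre. The share of this list in Alb-R3 was below that of all genes for rises and near it for falls. The counts were 1 and 2 in Alb-R3 and 1 and 3 in Alb-Cre without Alb-R3 CCl4 replicate 1. Cd14, a receptor for bacterial lipopolysaccharide that monocytes and macrophages also carry, had 463.2, 112.8 and 114.6 normalized counts in Alb-R3 CCl4, against 10.94, 6.80 and 11.83 in Alb-R3 oil, and rose by 4.11 ± 0.58 (adjusted p = 0.000395). Without replicate 1 of CCl4 it rose by 3.43. Steap4, a metalloreductase, rose by 1.32 ± 0.40 (adjusted p = 0.0368), a call lost without that library (adjusted p = 0.102). Saa4, which encodes the constitutive serum amyloid A, also fell in Alb-R3 (-0.83, adjusted p = 0.0387, and -1.18 without that library). Hamp2, a paralog of the iron hormone gene hepcidin, passed in both genotypes, with -3.28 ± 0.77 in Alb-R3 (adjusted p = 0.0111) and -3.22 ± 0.77 in Alb-Cre (adjusted p = 0.0309), and was -2.49 in Alb-R3 without that library. The median of the 30 was 0.22 in Alb-R3 and 0.02 in Alb-Cre.

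Of 14 negative acute phase genes, whose plasma proteins decline in the response, 4 fell and 0 rose in Alb-R3, and 0 passed in Alb-Cre. Again 4 fell in Alb-R3 without its CCl4 replicate 1, and 1, Serpina6, then fell in Alb-Cre. Serpina6, corticosteroid-binding globulin, fell by 2.48 ± 0.57 (adjusted p = 0.00994) and had 548.8, 3896 and 4720 normalized counts in Alb-R3 CCl4, against 11490, 12710 and 12000 in Alb-R3 oil. Fetub, fetuin B, fell by 1.41 ± 0.26 (adjusted p = 0.00282) and Igf1, insulin-like growth factor 1, by 0.79 ± 0.24 (adjusted p = 0.0378). F12, coagulation factor XII, was the fourth (-0.70, adjusted p = 0.0147). Leaving out replicate 1 of CCl4 gave -1.49 for Serpina6, -1.57 for Fetub, -1.03 for Igf1 and -0.67 for F12 in Alb-R3, and Serpina6 had -1.51 in Alb-Cre. The median of the list was -0.60 in Alb-R3 and -0.23 in Alb-Cre.

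Of 10 acute phase cytokines, 7 were tested. In Alb-R3 3 rose, Lif, Clcf1 and Il1a, and 1 fell, Ctf1 (-0.96, adjusted p = 0.0188). In Alb-Cre Lif rose, and Clcf1 had 2.17 ± 0.59 (adjusted p = 0.0578). Lif, a cytokine of the interleukin-6 family, had 7.22, 38.09 and 35.44 normalized counts in Alb-R3 CCl4, against 1.11, 0 and 0 in Alb-R3 oil. In Alb-Cre it had 21.39, 4.58 and 8.31 after CCl4, against 0, 0.972 and 0 after oil. Clcf1 rose by 3.90 ± 0.59 in Alb-R3 (adjusted p = 0.000709) and Il1a, interleukin-1 alpha, by 2.60 ± 0.45 (adjusted p = 0.00174). Il1a started lower there, at 8.75, 9.07 and 20.10 normalized counts in Alb-R3 oil, against 25.20, 42.78 and 73.99 in Alb-Cre oil. That difference was -1.79 and did not pass (limma adjusted p = 0.186). Of 15 receptors, 3 rose and 1 fell in Alb-R3 and 0 passed in Alb-Cre. Osmr, the oncostatin M receptor, rose by 3.19 ± 0.63 (adjusted p = 0.00395), and the lipopolysaccharide receptor Tlr4 and the lipopeptide receptor Tlr2, both present on macrophages, by 2.37 ± 0.57 (adjusted p = 0.0119) and 1.91 ± 0.44 (adjusted p = 0.00967). Tlr4 too started lower, at 3.28, 3.40 and 1.18 normalized counts in Alb-R3 oil, against 10.50, 8.75 and 16.71 in Alb-Cre oil. The difference was -1.86 (limma adjusted p = 0.377). The 1 receptor that fell was Il1rap, the interleukin-1 receptor accessory protein (-1.09, adjusted p = 0.0179). Both counts in Alb-R3 were the same without its CCl4 replicate 1, for cytokines and for receptors, and in Alb-Cre 2 cytokines then rose, Lif and Clcf1 (2.17, adjusted p = 0.0342). The Alb-R3 fold changes were then 4.88 for Lif, 3.55 for Clcf1, 2.31 for Il1a and -0.79 for Ctf1. Those of the receptors were 2.43 for Osmr, 1.87 for Tlr4, 1.40 for Tlr2 and -0.77 for Il1rap. The macrophage marker sums given above moved in the same comparison, and their part in these results was not tested.

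Of 22 transcription factors and feedback genes, 3 rose and 1 fell in Alb-R3, and 0 rose and 1 fell in Alb-Cre, shares near those of all tested genes in Alb-R3. Cebpa, which encodes C/EBP-alpha, the factor of mature hepatocytes, had 2744, 5247 and 4171 normalized counts in Alb-R3 CCl4, against 8605, 10260 and 10200 in Alb-R3 oil. In Alb-Cre it had 6213, 3473 and 4883 after CCl4, against 12530, 13340 and 6912 after oil. No CCl4 value reached an oil value of either genotype, as was so for 4.65% of tested genes. Cebpa fell in both, with -1.30 ± 0.30 in Alb-R3 (adjusted p = 0.00933) and -1.15 ± 0.30 in Alb-Cre (adjusted p = 0.0440). Relb, an NF-kB subunit, rose by 2.67 ± 0.48 in Alb-R3 (adjusted p = 0.0022), and Atf3, a stress-induced factor, by 1.96 ± 0.48 (adjusted p = 0.0135). The third was Nfkb2, another NF-kB subunit (1.06, adjusted p = 0.00735). Without Alb-R3 CCl4 replicate 1, 3 rose and 3 fell, Junb (-1.28) and Nfkbia (-0.62) beside Cebpa (-1.05). The 3 that rose had 2.27 for Relb, 1.80 for Atf3 and 0.77 for Nfkb2.

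Cebpe, a C/EBP factor known from granulocytes, differed between the genotypes. It was listed at 3.10, 0 and 0 normalized counts in Alb-R3 CCl4, against 145.8, 110.9 and 154.6 in Alb-Cre CCl4, and at 0 in all 3 Alb-R3 oil libraries, against 232.0, 261.5 and 263.7 in Alb-Cre oil. It passed as lower in both comparisons (limma adjusted p = 0.00013 and 8.75e-06), where 0.173% and 0.207% of tested genes passed in either direction. Cebpe was the 1 of the 22 transcription factors and feedback genes that passed between genotypes. In the other lists by role 0 genes did. A link between Cebpe and the acute phase genes was not tested.

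Of 11 scavenger receptors and partners of these proteins, 2 rose and 1 fell in Alb-R3 and 0 passed in Alb-Cre. Hmox1, heme oxygenase 1, which breaks down the heme that hemopexin delivers, had 713.9, 353.1 and 403.1 normalized counts in Alb-R3 CCl4, against 205.7, 191.5 and 139.6 in Alb-R3 oil, and rose by 1.40 ± 0.27 (adjusted p = 0.00359). Cd163, the macrophage receptor for haptoglobin-hemoglobin complexes and 1 of the 14 macrophage markers, rose by 1.12 ± 0.34 (adjusted p = 0.0361), a call lost without replicate 1 of CCl4 (adjusted p = 0.102). Lcat, an enzyme of high-density lipoprotein, fell by 0.89 ± 0.23 (adjusted p = 0.0161). Without that library Hmox1 had 1.09 (adjusted p = 0.00708) and Lcat -0.94 (adjusted p = 0.0168).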

How the data were processed

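RNA-seq of 12 hepatocyte samples was analysed from the authors' table. Per the file headers it gives 2 columns for each sample, the deposited FPKM values and the deposited normalized counts, which are a signal and not whole reads. Kallisto 0.44.0, edgeR and GRCm38.p6 appear in the submitters' processing notes, with no role stated. The value of 1 read was read from the steps between low values: 69.6% to 74.3% of values under 20 reads were whole multiples within 0.02, so no count model was run. Depth was 28020000 to 39610000 estimated reads.

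limma 3.58.1 (R 4.3.3) was fitted to log2(normalized count + 1) with a mean-variance trend, 1 coefficient per group and 8 residual degrees of freedom. Tested were 20244 genes that reached 1 in 3 or more samples, and p-values were adjusted by Benjamini-Hochberg over all of them. Such fold changes understate the change of low genes. The fit was tested on simulated data. Gene positions are from GENCODE M21 on GRCm38, counted from 1.

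The genes and gene lists were chosen with earlier results of these data known. Named from each list were the 3 called genes of largest fold change, and the highest of 3 correlations taken per gene as the similar profile; Cebpe and Cebpa fall under this rule. The other called genes of counts of 5 or fewer were named after their values were seen. The contrast averaged over genotypes and the FPKM ratios were added after seeing the data. Alternatives were quantile and median-of-ratios scaling, no filter, a pseudocount of 0.1 or 5, a block for the replicate number, FPKM values (pseudocount 0.1), family sums, and leaving out each library.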

Additional observations from a re-analysis of the deposited data

How the results depend on the processing

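Across the 19 alternatives, 1368 values of single genes and family sums were recomputed, and 1232 kept their direction and side of the threshold, 96 that passed in neither fit had the other sign, 29 lost the call, 11 gained it and 0 called values reversed. Orm2 in Alb-R3 lost its call under quantile normalization (adjusted p = 0.0546), without the filter (0.0550) and with the replicate number as a block (0.0518). Saa3, averaged over the genotypes, lost it without the filter (0.0616), with the replicate block (0.0573), without Alb-R3 CCl4 replicate 1 (0.0552), Alb-Cre CCl4 replicate 2 (0.0836) or 3 (0.0616), Alb-R3 oil replicate 1 (0.0838) or 2 (0.0896) and Alb-Cre oil replicate 1 (0.0903). The sum of Saa1 and Saa2, averaged over the genotypes at -1.80 (adjusted p = 0.0415), missed the threshold at -1.41 under quantile normalization, -1.80 without the filter, -1.80 with the replicate block and -1.55 in FPKM, and ranged from -2.32 to -1.45 leaving out 1 library, with 9 of 12 such fits missing it. The cause was not tested.

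Leaving out 1 library, 2 to 5 of the 10 genes passed in Alb-R3 (3 with all libraries), 1 to 3 in Alb-Cre (1) and 3 to 5 averaged over both (4), and 0 in each comparison of genotypes. The sum of Saa1 and Saa2 ranged from -2.63 to -0.89 in Alb-R3 and from -2.78 to -1.51 in Alb-Cre, and the orosomucoid sum from -1.66 to -0.45 in Alb-R3, -1.82 to -0.80 in Alb-Cre and -1.40 to -0.80 averaged, passing in 1 of 12 averaged fits, without Alb-R3 CCl4 replicate 1 (adjusted p = 0.0153). The lowest of the Saa1 and Saa2 sums in Alb-R3 was the fit without Alb-R3 CCl4 replicate 1, and it passed. Over all tested genes, calls ranged from 2137 to 3782 in Alb-R3 (3598), 525 to 1431 in Alb-Cre (900), 20 to 38 between genotypes after CCl4 (35; 54 in FPKM), 28 to 103 after oil (42) and 0 to 3 for the interaction (0). FPKM values moved the median of all genes by 0.16 in Alb-R3 and 0.13 in Alb-Cre, and split the calls 3118 higher and 544 lower in Alb-R3 and 1096 higher and 88 lower in Alb-Cre, against 2198 and 1400, and 700 and 200. Samples of the same replicate number correlated at -0.19 to 0.20 in their deviations from group means over 18 pairs. Samples of unlike number were not compared, so this check cannot decide whether the numbers pair the samples. The block moved no count of the 10 genes beyond 1.5 times. The ratio of Hp to Hpx was 0.33 higher on the log2 scale after CCl4 (exact p = 0.03, and 0.05 after adjustment over 5 ratios, which does not pass). Leaving out Alb-R3 CCl4 replicate 1 gave 0.27 (unadjusted exact p = 0.055), and leaving out Alb-Cre CCl4 replicate 3 gave 0.31 (unadjusted exact p = 0.06).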
